A study of Homo sapiens with 2 samples.

Results

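The genes described here make, modify, import or sulfate steroid hormones. They comprise 41 listed genes for steroidogenic enzymes, steroid dehydrogenases, steroid carriers and sulfotransferases, without the aldo-keto reductases. A gene was taken as measured where the platform annotation gave its symbol, and no other, to a probe set. Of the 41 genes, 36 had such a probe set, and together they held 71 of the 54675 probe sets on the array. No probe set was named for FDXR, HSD3B7, HSD17B13 or SRD5A3, and the 1 probe set for CYP21A2 was shared with a pseudogene, so these 5 genes are not analysed here.

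RNA came from C4-2B-MDVR, an enzalutamide-resistant human prostate cancer cell line, and from C4-2B, the enzalutamide-sensitive line it was selected from by prolonged drug exposure. Both lines were grown in RPMI-1640 with 10% complete fetal bovine serum, received no treatment, and were each hybridized to 1 Affymetrix array, so the resistant state is represented by a single selected line. With 1 array per line there is no spread between replicates, and every difference below is a measured value without a test, SE or p-value. The free-text descriptions call the resistant cells docetaxel-resistant TaxR and the other cells docetaxel-sensitive, against the title, source and cell line fields, which were followed.

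Steroid hormones are built from cholesterol, which is carried into mitochondria and cut by a cytochrome P450, and then reshaped by further P450s and by hydroxysteroid dehydrogenases. Prostate cancer cells can also take up adrenal steroids, often as sulfates, free them with steroid sulfatase, and convert them through 3-beta- and 17-beta-hydroxysteroid dehydrogenases and 5-alpha reductases to testosterone and dihydrotestosterone. Serum in the medium is a source of such steroids, and hormone levels were not measured in the data used here.

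Values are intensities on a linear scale. Differences are on the log2 scale, with C4-2B subtracted from C4-2B-MDVR, so a positive one means higher in C4-2B-MDVR. A gene with several probe sets was represented by the one brightest over both arrays. The detection floor was the median intensity of an array, 43.5 in C4-2B-MDVR and 41.9 in C4-2B, and a gene counted as above it if the brighter of its values reached the floor of that array. Of the 36 measured genes 23 were above the floor (63.9%), against 67.9% of 19775 named genes on the array. The 7 luminal prostate markers KRT8, KRT18, EPCAM, CDH1, HOXB13, FOXA1 and FOLH1 were all above it, at 413 to 4039 in C4-2B-MDVR and 356 to 4337 in C4-2B, with sums of 13064 and 14092. Fibroblast, endothelial and blood markers summed to 255 in C4-2B-MDVR and 246 in C4-2B, with 3 of 6 above the floor. The adrenal and Leydig cell markers NR5A1, MC2R, MRAP, INSL3, LHCGR, CYP11B2 and CYP17A1 summed to 293 in C4-2B-MDVR and 256 in C4-2B, with 3 of 7 above it. CYP11B2 and CYP17A1 are also among the 41 genes, and without them the sums were 196 in C4-2B-MDVR and 189 in C4-2B. These last 2 lists reached 80.4 at most, in a gene of the fibroblast, endothelial and blood list, so a value just over the floor does not show that a gene was expressed. CYP11A1, CYP11B2, HSD3B1, HSD17B6, RDH5 and SLCO2B1 were above the floor but no higher than 80.4 on either array.

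Most of the 23 steroid genes above the floor differed little between the lines, and those furthest apart lay in both directions. HSD3B1, which turns adrenal dehydroepiandrosterone into androstenedione, was the 1 gene 2-fold or more higher in C4-2B-MDVR. STS, the steroid sulfatase, and CYP11A1, which cuts the cholesterol side chain, were the 2 that were 2-fold or more lower, STS in its brightest probe set alone. Of all 13437 named genes that passed the floor, 3.17% were at least 2-fold higher and 3.5% at least 2-fold lower, and among the 23 steroid genes the shares were 4.35% and 8.70%. The median difference of the 23 was 0.04, and that of all 13437 genes was 0.04 as well. Of the 23 genes 12 were above 0 and 11 below, beside 55.1% of all 13437 genes above 0.

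With a cut-off of 1.5-fold, HSD17B14, CYP11B2 and HSD17B1 joined HSD3B1 on the higher side and HSD17B8 joined STS and CYP11A1 on the lower. That made 4 higher and 3 lower, or 17.4% and 13.0% of the 23, beside 8.26% and 9.32% of all genes above the floor. The other 16 genes were within 1.5-fold by their brightest probe sets. Of the 23 genes 21 were above the floor on both arrays. For HSD3B1 and CYP11A1 the value under the floor was also replaced by the floor, which makes their differences smaller. With that, 0 of the 23 were 2-fold or more higher and STS alone was 2-fold or more lower. As neither HSD3B1 nor CYP11A1 was higher than 80.4 on either array, these smaller differences are no bounds on a change in expression. The corresponding shares of all genes were 2.76% and 3.14%.

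**Figure D1:**
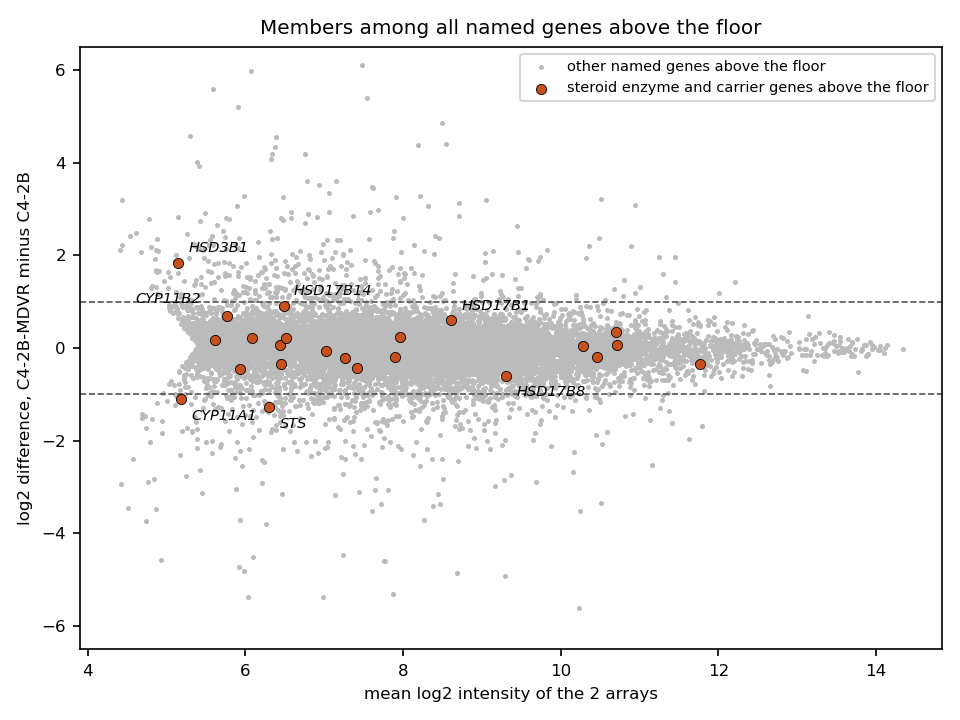
Log2 difference, C4-2B-MDVR minus C4-2B, against the mean log2 intensity of both arrays for named genes above the detection floor, with dashed lines at 2-fold. The 23 steroid genes (orange) scatter around 0, with HSD3B1 above the upper line and STS and CYP11A1 below the lower line.

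The 3 genes beyond 2-fold and HSD3B2, the near copy of HSD3B1, are shown by their reference promoter windows, 250 bases before to 50 bases after the outermost annotated start, from RefSeq on GRCh38.p14. Such windows were matched by symbol for 32 of the 41 genes. STS had 5 listed windows and HSD3B1 had 2, of which only the outermost was searched and is shown. Capitals mark AGGTCA, a half-site bound by nuclear receptors such as those of steroid-producing cells, or AGAACA, a half-site of androgen and glucocorticoid receptor elements, each searched on both strands together with TATAAA. These 3 motifs did not overlap each other in the 4 windows. The windows of HSD3B1 (chr1:119506953-119507252, plus strand), HSD3B2 (chr1:119414681-119414980, plus strand), STS (chrX:7147040-7147339, plus strand) and CYP11A1 (chr15:74367597-74367896, minus strand) read as follows, each in the direction of its gene.
HSD3B1: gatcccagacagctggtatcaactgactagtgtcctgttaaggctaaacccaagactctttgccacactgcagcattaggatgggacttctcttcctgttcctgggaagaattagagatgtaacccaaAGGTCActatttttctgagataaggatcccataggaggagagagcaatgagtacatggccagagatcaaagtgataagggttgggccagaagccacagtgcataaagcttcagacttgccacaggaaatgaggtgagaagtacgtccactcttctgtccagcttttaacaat
HSD3B2: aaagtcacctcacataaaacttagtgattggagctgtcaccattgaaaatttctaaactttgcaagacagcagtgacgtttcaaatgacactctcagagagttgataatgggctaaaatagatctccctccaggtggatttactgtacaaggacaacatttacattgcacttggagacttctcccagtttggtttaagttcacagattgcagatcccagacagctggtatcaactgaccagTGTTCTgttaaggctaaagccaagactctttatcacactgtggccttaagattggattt
STS: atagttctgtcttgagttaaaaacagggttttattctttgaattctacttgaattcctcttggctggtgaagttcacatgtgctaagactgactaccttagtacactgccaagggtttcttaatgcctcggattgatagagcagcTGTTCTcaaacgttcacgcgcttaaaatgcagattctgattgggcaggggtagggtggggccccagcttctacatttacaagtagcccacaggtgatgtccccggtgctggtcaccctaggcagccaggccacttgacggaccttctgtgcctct
CYP11A1: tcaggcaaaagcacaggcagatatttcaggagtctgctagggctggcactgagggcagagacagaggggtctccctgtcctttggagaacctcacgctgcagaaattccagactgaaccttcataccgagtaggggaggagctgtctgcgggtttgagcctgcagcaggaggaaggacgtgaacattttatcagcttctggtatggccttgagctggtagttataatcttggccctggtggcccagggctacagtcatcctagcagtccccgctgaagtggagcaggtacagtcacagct

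HSD3B1 held 1 AGGTCA, starting at -122 from the annotated start, while HSD3B2 and STS each held AGAACA in reverse orientation, printed as TGTTCT, from -9 and -105. None of the 3 motifs lay in the CYP11A1 window. AGGTCA occurred in 7 of the 32 windows (21.9%) and in 14.0% of 27305 promoter windows of the same length, AGAACA in 4 (12.5%) and 14.9%, and TATAAA in 4 (12.5%) and 12.0%. The first 89 bases of the HSD3B1 window aligned with the last 89 of the HSD3B2 window at 78 identical positions (87.6%). A match in letters is a description and not a binding site, and the arrays measured no promoter.

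No cholesterol import gene was beyond 1.5-fold. STAR, which carries cholesterol to the inner mitochondrial membrane in adrenal and gonad, had an intensity of 23.8 in C4-2B-MDVR and 18.8 in C4-2B, under the floor in both. STARD3, its relative on late endosomes, read 128 in C4-2B-MDVR and 133 in C4-2B, a difference of -0.06. TSPO, a cholesterol-binding protein of the outer mitochondrial membrane, read 1881 in C4-2B-MDVR and 1474 in C4-2B, a difference of 0.35.

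The steroidogenic P450s were dim on both arrays. CYP11A1 read 24.7 in C4-2B-MDVR, under the floor, and 53.4 in C4-2B, a measured difference of -1.11. Against the floor it was 1.23-fold lower, so the 2-fold call rests on a value under the floor. CYP11B2, the aldosterone synthase of the adrenal cortex, read 69.5 in C4-2B-MDVR and 42.9 in C4-2B (0.70), the second value barely over its floor of 41.9.

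The other 3 measured P450s were under the floor in both lines. CYP17A1, the hydroxylase and lyase that opens the route to androgens, read 27.2 in C4-2B-MDVR and 24.3 in C4-2B, and its other probe set was dimmer still at 14.9 and 11.1. CYP11B1, which completes cortisol, read 35.2 in C4-2B-MDVR and 26.4 in C4-2B. All 7 probe sets of CYP19A1, the aromatase that makes estrogens, were under the floor, and their differences lay between -0.02 and 0.11.

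The electron donors of these P450s were above the floor on both arrays and differed by less than 1.5-fold in their brightest probe sets. CYB5A, cytochrome b5, which favours the lyase step of CYP17A1, read 3076 in C4-2B-MDVR and 3918 in C4-2B, a difference of -0.35. Its 3 probe sets above the floor were lower in C4-2B-MDVR, with differences of -0.35, -0.39 and -0.64, the last of them past 1.5-fold, and the other was under the floor on both arrays. POR, which passes electrons to microsomal P450s, read 272 in C4-2B-MDVR and 229 in C4-2B (0.25). FDX1, the ferredoxin of mitochondrial P450s, read 1260 in C4-2B-MDVR and 1229 in C4-2B (0.04), while its other 2 probe sets were at -0.40 and -0.15.

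HSD3B1 had the largest measured difference of the 36 genes. Its brighter probe set read 67.1 in C4-2B-MDVR and 18.7 in C4-2B, which was under the floor, a measured difference of 1.84. Against the floor it was 1.60-fold higher. Its other probe set was under the floor on both arrays, with 10.2 in C4-2B-MDVR and 13.5 in C4-2B, so the higher value rests on 1 probe set, and the mean of both gave 0.72. HSD3B2, the adrenal and gonadal form, read 13.2 in C4-2B-MDVR and 12.5 in C4-2B, under the floor in both. These genes are close in sequence and lie near each other, with 7 annotated genes and no protein-coding gene between them, of which 2 carry HSD3B pseudogene symbols, and cross-hybridization between them was not tested.

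**Figure D2:**
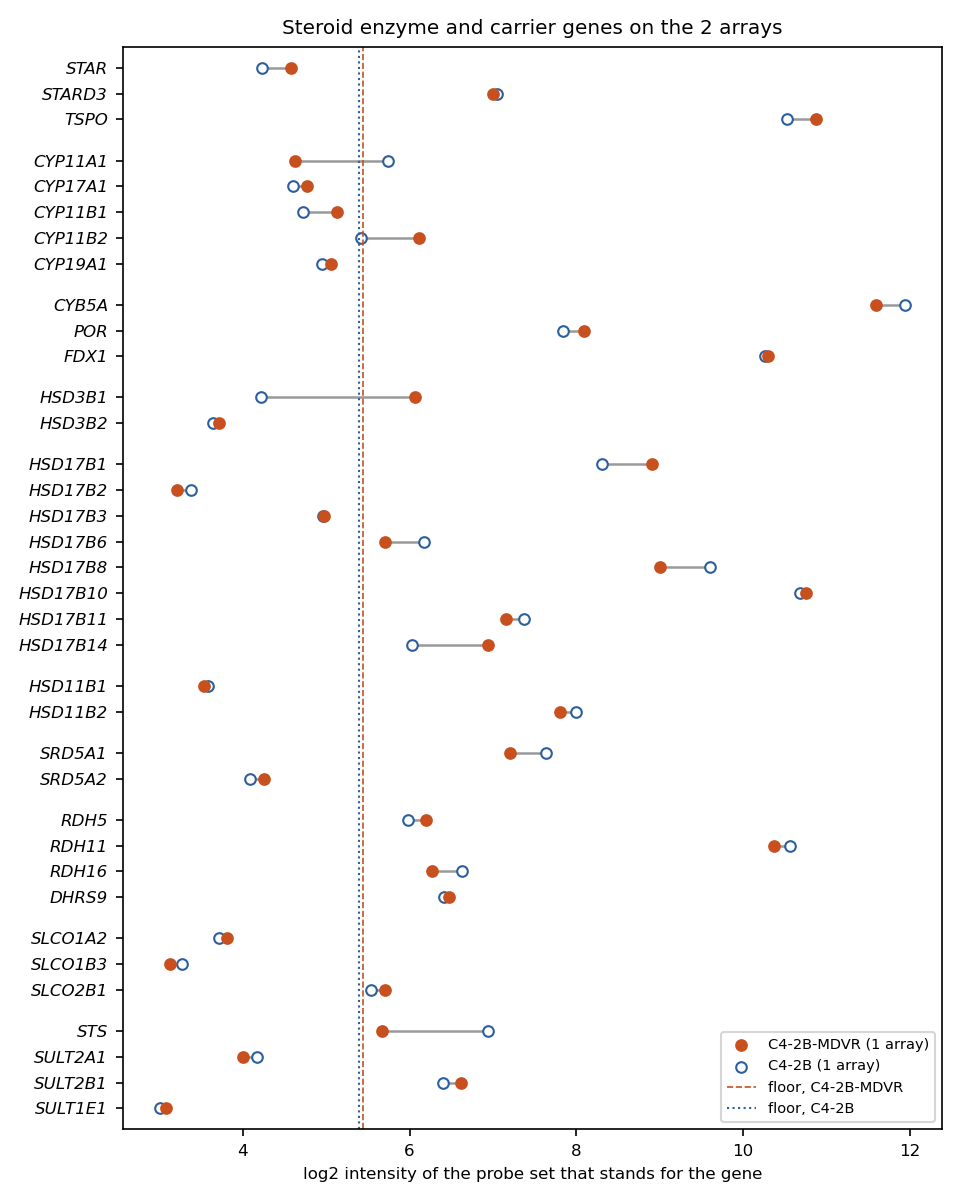
Log2 intensity of the probe set that stands for each of the 36 measured genes in C4-2B-MDVR (filled) and C4-2B (open), 1 array each, with the floor of each array as a vertical line and genes grouped by role. HSD3B1 and CYP11A1 lie across the floors, and 13 genes are left of both; levels of different genes are not comparable as amounts of RNA.

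Of the 6 genes of the 17-beta-hydroxysteroid dehydrogenase family above the floor, HSD17B14 and HSD17B1 were beyond 1.5-fold on the higher side and HSD17B8 on the lower. With so few genes the shares, 33.3% and 16.7%, are only a description beside the 8.26% and 9.32% of all genes, and the mean of the probe sets takes HSD17B1 inside 1.5-fold and HSD17B6 beyond it. HSD17B14, which oxidizes estradiol and related steroids at the 17 position, was higher in C4-2B-MDVR in all 4 of its probe sets. Their intensities were 123, 103, 75.4 and 73.3 in C4-2B-MDVR, against 65.4, 46.8, 42.4 and 31.5 in C4-2B. All of the C4-2B values, and 75.4 and 73.3 in C4-2B-MDVR, were under 80.4, the most that the fibroblast, endothelial and blood markers reached. The differences of the 4 probe sets were 0.91, 1.14, 0.83 and 1.22, and the brightest of the 4 lay just under 2-fold, with the lowest C4-2B value under the floor. With the mean of the 4 the HSD17B14 difference was 1.02, past 2-fold. These probe sets carry names that mark sequence shared between transcripts or genes, so they are not independent readings.

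HSD17B1, which reduces estrone to estradiol, was read differently by its probe sets. The brighter had 481 in C4-2B-MDVR and 317 in C4-2B (0.60), the other had 142 in C4-2B-MDVR and 155 in C4-2B (-0.12), and the mean difference was 0.24. HSD17B8, a mitochondrial enzyme of fatty acid synthesis that also oxidizes estradiol, read 514 in C4-2B-MDVR and 777 in C4-2B (-0.60). HSD17B6, which can regenerate dihydrotestosterone from androstanediol, was lower in both of its probe sets. They read 52.2 and 39.7 in C4-2B-MDVR, against 71.9 and 67.1 in C4-2B, with differences of -0.46 and -0.76 and a mean of -0.61. The value of 39.7 was under its floor, so the second difference rests on a value under the floor.

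The remaining family members differed by less than 1.5-fold or were under the floor. HSD17B10, a mitochondrial enzyme of isoleucine breakdown that also acts on steroids, read 1720 in C4-2B-MDVR and 1645 in C4-2B (0.06). HSD17B11, a lipid droplet protein that oxidizes androstanediol, read 142 in C4-2B-MDVR and 166 in C4-2B (-0.22). HSD17B3, the testis enzyme that makes testosterone, read 31.4 in C4-2B-MDVR and 31.3 in C4-2B. HSD17B2, which oxidizes testosterone and estradiol, read 9.26 in C4-2B-MDVR and 10.4 in C4-2B. Both of the last genes were under the floor in both lines.

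Neither gene of the glucocorticoid-handling pair was beyond 1.5-fold. HSD11B2, which inactivates cortisol to cortisone, read 223 in C4-2B-MDVR and 255 in C4-2B, a difference of -0.20. HSD11B1, which runs the opposite reaction, read 11.6 in C4-2B-MDVR and 12.0 in C4-2B, under the floor in both.

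Of the 5-alpha reductases, which turn testosterone into dihydrotestosterone, SRD5A1 was above the floor and SRD5A2 was not. The 3 SRD5A1 probe sets read 147, 136 and 80.7 in C4-2B-MDVR, against 199, 151 and 101 in C4-2B. Each was lower in C4-2B-MDVR, with differences of -0.44, -0.15 and -0.33. SRD5A2, the form typical of normal prostate, read 19.2 in C4-2B-MDVR and 17.0 in C4-2B.

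The retinol dehydrogenases of the short-chain family, some of which also oxidize 3-alpha-hydroxysteroids, were all above the floor and within 1.5-fold. RDH11, a retinal reductase abundant in prostate, read 1325 in C4-2B-MDVR and 1512 in C4-2B (-0.19), but a second bright probe set read 1155 in C4-2B-MDVR and 855 in C4-2B (0.43). RDH16 read 77.4 in C4-2B-MDVR and 98.6 in C4-2B (-0.35). RDH5, the 11-cis-retinol dehydrogenase of the eye, read 73.4 in C4-2B-MDVR and 62.9 in C4-2B (0.22), and DHRS9 read 88.8 in C4-2B-MDVR and 85.1 in C4-2B (0.06).

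Among the organic anion carriers, which import steroid sulfates, SLCO2B1 was above the floor. Its brightest probe set read 52.0 in C4-2B-MDVR and 46.4 in C4-2B (0.16), and all 3 lay between 0.12 and 0.26. SLCO1A2 read 14.1 in C4-2B-MDVR and 13.2 in C4-2B, and SLCO1B3 read 8.78 in C4-2B-MDVR and 9.70 in C4-2B, both under the floor in both lines.

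STS, which frees steroids such as dehydroepiandrosterone from their sulfates, was lower in its brightest probe set, while its other probe sets differed less and not all in 1 direction. That probe set read 50.7 in C4-2B-MDVR and 123 in C4-2B, both above the floor, a difference of -1.28. The next 2 above the floor read 53.1 and 61.1 in C4-2B-MDVR, against 67.6 and 59.0 in C4-2B, with differences of -0.35 and 0.05. The last one, under the floor, read 19.9 in C4-2B-MDVR and 30.8 in C4-2B (-0.63). Apart from the 123 in C4-2B, every STS value was under 80.4, the most that the fibroblast, endothelial and blood markers reached. With the mean of all 4 probe sets the STS difference was -0.55, inside 2-fold.

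Of the sulfotransferases, which run the opposite way and add sulfate, SULT2B1 alone was above the floor. SULT2B1, which sulfates cholesterol and dehydroepiandrosterone, read 98.5 in C4-2B-MDVR and 84.4 in C4-2B (0.22). SULT2A1, the adrenal and liver enzyme for dehydroepiandrosterone, read 16.0 in C4-2B-MDVR and 18.0 in C4-2B, under the floor. SULT1E1, the estrogen sulfotransferase, read 8.49 in C4-2B-MDVR and 8.04 in C4-2B, also under it.

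**Figure D3:**
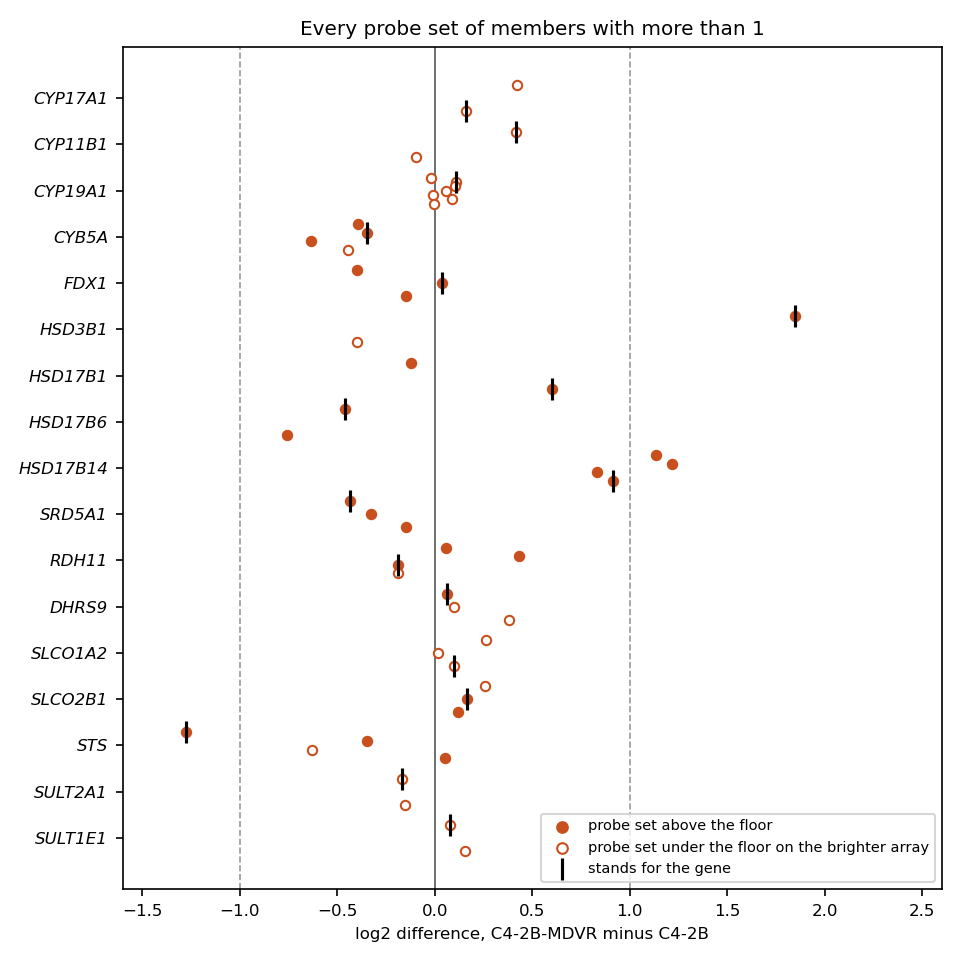
Log2 difference, C4-2B-MDVR minus C4-2B, for every probe set of the 17 genes with several, filled where above the floor and open where under it, with a bar on the probe set that stands for the gene. The 4 HSD17B14 probe sets lie together between 0.83 and 1.22, while those of STS spread between -1.28 and 0.05.

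Probe sets of 1 gene gave a view of measurement spread in place of replicates. Over the 6261 genes of the array with at least 2 probe sets above the floor, the differences of a gene's probe sets spanned a median of 0.34 on the log2 scale, and 0.96 at the 90th percentile. Among the 9 steroid genes with several above the floor, 5 (CYB5A, HSD17B6, HSD17B14, SRD5A1 and SLCO2B1) had the same sign in all, and 4 (FDX1, HSD17B1, RDH11 and STS) had both signs. STS spanned 1.33 and HSD17B1 0.73. Probe sets of a gene can read different transcripts, and this spread is no replicate error of the cell lines.

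The 13 steroid genes under the floor in both lines had differences between -0.17 and 0.41, which have no order. They were STAR, CYP17A1, CYP11B1, CYP19A1, HSD3B2, HSD17B2, HSD17B3, HSD11B1, SRD5A2, SLCO1A2, SLCO1B3, SULT2A1 and SULT1E1. Genes of adrenal and gonadal steroid synthesis such as STAR, CYP17A1, HSD3B2 and HSD17B3 are among them. A fall in these was not detectable at this signal, and none reached the floor in C4-2B-MDVR, where the 13 reached 35.2 at most.

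Genes flanking the 4 furthest members were compared with them, taking the 5 nearest protein-coding genes on each side in the RefSeq gene order. Around HSD3B1, 3 of 10 were above the floor and differed by 0.08 to 0.29. Around HSD17B14, 7 differed by -0.12 to 0.68, and around CYP11A1 7 differed by -0.01 to 0.49. Around STS, 5 differed by -0.40 to 3.19, with a median of 0.08, and the highest, VCX2, was the 1 flanking gene beyond 2-fold.

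A further 70 genes of steroid synthesis and transport were listed outside the 41, and 44 of the 62 measured were above the floor. By their brightest probe sets, 2 of the 44 were 2-fold or more higher and 2 lower (4.55% each, beside 3.17% and 3.5% of all genes), and the median difference was -0.02. DHRS3, a retinal reductase of the short-chain family, read 381 in C4-2B-MDVR and 112 in C4-2B (1.77). NPC2, which moves cholesterol out of lysosomes, read 1255 in C4-2B-MDVR and 609 in C4-2B (1.04), whereas its partner NPC1 read 369 in C4-2B-MDVR and 600 in C4-2B (-0.70). NPC2 passed 2-fold by less than the 0.05 that median centring took from the differences of the steroid genes. Scaling was not varied for the further genes.

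CYP39A1, an oxysterol hydroxylase, read 41.8 in C4-2B-MDVR, under the floor, and 118 in C4-2B in its brightest probe set. The difference there was -1.50, or 2.71-fold lower against the floor. Its other probe set above the floor read 46.1 in C4-2B-MDVR and 75.6 in C4-2B (-0.71), and the mean CYP39A1 difference was -1.10 over these 2 and -0.93, inside 2-fold, over all 3 probe sets. DHRS11, a dehydrogenase that acts on 17-ketosteroids, read 138 in C4-2B-MDVR and 277 in C4-2B (-1.003). In the cofactor list PAPSS1, which makes the sulfate donor used by sulfotransferases, read 1422 in C4-2B-MDVR and 796 in C4-2B (0.84), and the progesterone receptor membrane component PGRMC2 read 247 in C4-2B-MDVR and 408 in C4-2B (-0.72). By the mean of the probe sets above the floor, CYB5B (-0.85) and SLC35B3 (-0.81) of this list were lower by more than PGRMC2 (-0.78). By brightest probe sets, 5 of its 10 genes above the floor were above 0 and 5 below. SUMF1, which activates sulfatases including STS, read 675 in C4-2B-MDVR and 415 in C4-2B (0.70), and was singled out after its value was seen.

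Other carriers and sulfotransferases were within 2-fold by their brightest probe sets. The carrier SLCO3A1 read 110 in C4-2B-MDVR and 63.5 in C4-2B (0.80), with its 4 probe sets between 0.43 and 1.64. A dimmer one read 94.1 in C4-2B-MDVR and 30.3 in C4-2B, under the floor, and the mean of the 3 SLCO3A1 probe sets above the floor was 1.06, past 2-fold. SLCO5A1 read 57.1 in C4-2B-MDVR and 31.2 in C4-2B, which was under the floor (0.87). Against the floor SLCO5A1 was 1.36-fold higher. SULT1A1, a phenol sulfotransferase, differed by 0.46, SULT4A1 by -0.08 and CYP27A1, which hydroxylates the cholesterol side chain, by -0.34. Among regulators of steroidogenic cells GATA6 differed by 0.31 and MC2R, the corticotropin receptor, by 0.28. SLCO5A1, SULT4A1, CYP27A1 and MC2R were above the floor but no higher than 80.4 on either array, and the other MC2R probe sets were under the floor. NR5A1, the steroidogenic factor of adrenal and gonad, was under the floor in both lines.

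**Figure D4:**
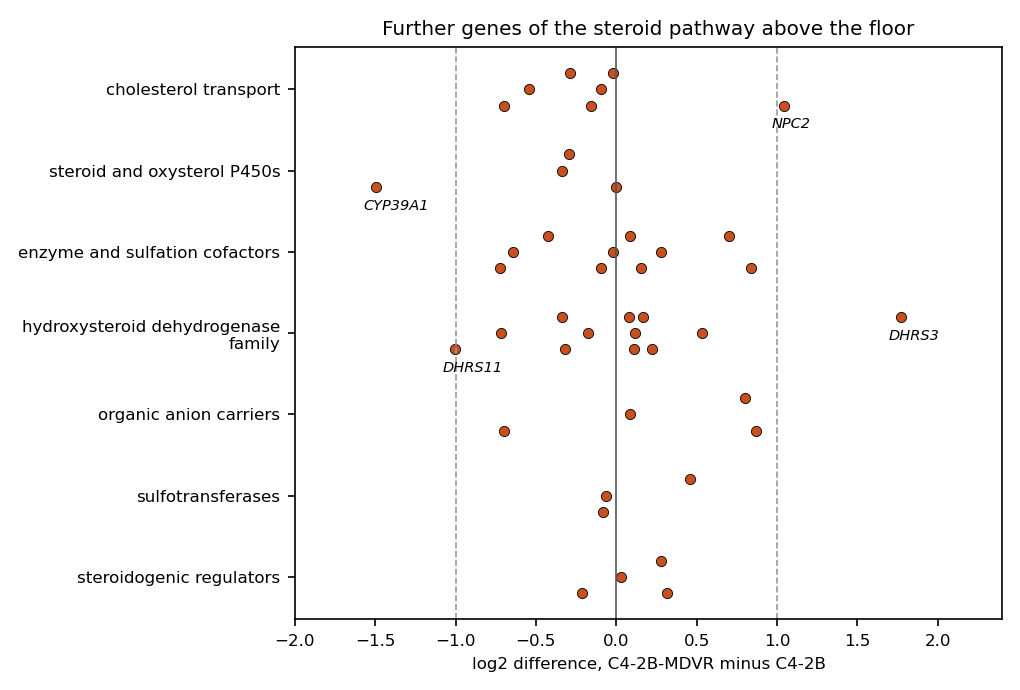
Log2 difference, C4-2B-MDVR minus C4-2B, for the 44 further pathway genes above the floor, by list, with dashed lines at 2-fold. DHRS3 and NPC2 lie beyond the upper line, and CYP39A1 and DHRS11 beyond the lower.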

How the data were processed

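Total RNA (100 ng) of each line was amplified with a whole-transcript kit, fragmented and biotinylated for Affymetrix arrays, per the labels. The deposited intensity values are linear and already summarized per probe set; how the authors corrected the background, normalized and summarized them is not given in the sources used here. Log2 of the deposited values was analysed without rescaling. The 2 arrays correlated at Pearson's r of 0.978 across 54675 probe sets, which are not replicates. The table held 0 other sample columns.

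Symbols came from the platform annotation of 41097 probe sets with 1 symbol, while 1801 with several and 11777 with none named no gene. Entrez identifiers matched RefSeq of GRCh38.p14 for 41043, with the same symbol. The members and lists were chosen with earlier results of these data known. All members are named, as are, in each further list, genes above the floor beyond 2-fold and the 2 with the largest difference, by brightest probe sets. With 1 array per line there was no test, and precision is limited by that number. The steps were tested on simulated data with shifts placed in bright genes alone, which does not show how they perform near the floor. Alternatives concerned scaling, probe sets, floor and threshold. Python 3.11.15, numpy 2.4.6, pandas 2.3.3, statsmodels 0.14.6, biopython 1.88 and matplotlib 3.10.9 were used.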

Additional observations from a re-analysis of the deposited data

How the results depend on the processing

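Quantile normalization, median centring, loess (span 0.3), probe sets with several symbols, and a floor at the 25th percentile or none left the counts at 1 steroid gene 2-fold or more higher and 2 lower. These counts were out of 23 genes, but out of 30 with the floor at the 25th percentile and 36 without a floor. With the mean of all probe sets (21 genes above the floor), or without probe sets named x_at or s_at (17 genes), which removes STS and HSD17B14 altogether, 1 was lower. With a floor at the 75th percentile, which 11 genes passed, 0 were higher and 0 lower, since the genes concerned are too dim to be counted. With each value under the floor set to the floor, 0 were higher and 1 lower. A 1.5-fold threshold gave 4 higher, and a 3-fold threshold 0 lower. With the mean of the probe sets above the floor, chosen after the data were seen, 2 of 23 were higher (HSD3B1 and HSD17B14) and 1 lower (CYP11A1). Beyond the main setting, shares of all genes were computed for values set to the floor and for the 1.5-fold threshold alone. The other counts have no such share beside them. Of 391 single-gene differences recomputed, 230 equalled the reported value, mostly by construction since the floor percentile or a probe set rule alters few genes, and median centring shifted 36 alike by 0.05. Of the 125 that another setting altered, 115 moved by no more than 0.34 on the log2 scale and 10 by more, in 6 genes. These were HSD3B1, STS, CYP11A1, HSD17B1, CYP11B1 and FDX1, so every gene beyond 2-fold was among the 6. At their smallest, HSD3B1 was at 0.68, STS at -0.52 and CYP11A1 at -0.30. With the mean of all probe sets HSD3B1 was at 0.72, and the 1 gene counted as higher was then HSD17B14. No gene beyond 2-fold changed sign, and the 15 sign changes concerned genes of at most 0.41. The median difference ranged from -0.19, without x_at and s_at probe sets or with the floor at the 75th percentile, to 0.06. Under the 2 settings at -0.19 the median of all genes was 0.02 and -0.01, so there the steroid genes lay lower than all genes. No paired analysis was possible because each line had 1 array, and dim signal limits every gene near the floor.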
